A study of Mus musculus with 14 samples.

Results

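The genes described here build and remodel the extracellular matrix. They are the collagen chains, the laminin chains, the matrix metalloproteinases (Mmp) and their tissue inhibitors (Timp), the fibulins (Fbln), fibronectin (Fn1), decorin (Dcn), lumican (Lum), biglycan (Bgn), Sparc and the serine protease Htra1. They were picked out by gene symbol, with earlier results of these data known. They take up 126 of the 22690 probe sets of the array, which stand for 76 genes. Fibrillin 1 (Fbn1) belonged to the same choice, but no probe set carried it in the annotation used here. Among the 126, 62 probe sets of 44 genes passed the filter on signal and were tested. The other 64 probe sets, which include every probe set of 32 genes, lay below it.

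Thymus RNA was hybridised to 14 Affymetrix arrays in 7 groups of 2, each array holding RNA pooled from 3 mice. All mice were females of the inbred strain C57BL/6, ovariectomised at 26 days of age. Their diet was free of phytoestrogens, apart from the genistein given to the genistein groups. Treatment began at 30 days of age in the groups that received it. The estradiol groups received 125 ng of 17β-estradiol a day under the skin in 0.02 ml of corn oil and were taken on days 2, 3 and 6. The genistein groups ate chow containing genistein at 1500 ppm and were taken on the same days; this isoflavone of soy is a ligand of estrogen receptors. The control group, ovariectomised like the others, was taken untreated at day 0. No untreated arrays of days 2, 3 or 6 were analysed here, so treatment and time since its start cannot be told apart in a comparison with control, and only the estradiol groups had oil injections. The comparisons of estradiol with control and of genistein with control share the same 2 control arrays.

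Values are signals after every array was brought to a common trimmed mean of 150.04. The deposited trimmed mean was 223.4 on estradiol day 2 replicate 2, and 300.3 and 334.6 on estradiol day 3 replicates 1 and 2, against 150.04 on the other 11 arrays. These 3 arrays all belong to estradiol groups, and results are given with and without them. A term for the scale in the fit (a block) was also tried. It could be estimated only from the 2 arrays of estradiol day 2, since both arrays of day 3 had another scale. Thymocyte markers were bright on all arrays, with a summed signal of 10422 to 12770 on estradiol arrays, 11264 to 13536 on genistein arrays and 11324 to 11795 on control arrays. Differences are on the log2(signal + 16) scale with the standard error (SE) of limma, a linear model with moderated variances. Fold values are these differences taken out of the log. They are thus ratios of signal + 16, nearer to no change than ratios of the signals alone. A call is an adjusted p below 0.05. The number of arrays limits the precision, and p-values measure the spread between pools of mice in 1 study. In whole thymus RNA, fewer cells of a type and less RNA per cell cannot be told apart.

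In a tissue, fibrillar collagens such as types I and III give tensile strength, while type IV collagen and laminins form the sheets of the basement membrane under epithelium and around vessels. Fibronectin, decorin and other glycoproteins and proteoglycans tie these networks together and to cells, and secreted proteases cut them under the control of inhibitors. In the thymus, mesenchymal and epithelial cells make most of this matrix, which lies in the capsule, the septa and around vessels and which developing thymocytes contact as they migrate.

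Sequence around the transcription start came from RefSeq. Its promoter table (build GRCm38.p6, 250 bases before to 50 after the start) matched 54 of the 76 genes with 63 windows. Shown first are Htra1, the gene called in the most comparisons, and Col1a2, a chain of type I collagen. Htra1 is at chr7:130935953-130936252 on the plus strand and Col1a2 at chr6:4505368-4505667 on the plus strand, and capitals mark a GC box, GGGCGG or its reverse complement CCGCCC.
Htra1: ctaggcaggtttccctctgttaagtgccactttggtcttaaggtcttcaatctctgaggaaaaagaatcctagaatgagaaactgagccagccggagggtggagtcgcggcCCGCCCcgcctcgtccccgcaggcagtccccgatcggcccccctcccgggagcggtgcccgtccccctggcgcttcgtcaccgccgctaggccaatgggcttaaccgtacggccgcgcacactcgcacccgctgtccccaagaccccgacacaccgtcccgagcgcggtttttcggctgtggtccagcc
Col1a2: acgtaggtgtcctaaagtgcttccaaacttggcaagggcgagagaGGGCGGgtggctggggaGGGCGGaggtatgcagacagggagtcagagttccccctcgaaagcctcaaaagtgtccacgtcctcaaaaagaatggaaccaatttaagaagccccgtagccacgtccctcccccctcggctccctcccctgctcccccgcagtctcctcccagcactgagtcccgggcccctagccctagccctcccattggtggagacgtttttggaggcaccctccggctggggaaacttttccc
The Htra1 window held 1 GC box, at base 112, and the Col1a2 window 2, at bases 46 and 63. Neither window held the palindromic estrogen response element GGTCANNNTGACC, its shorter arm GGTCA, the AP-1 site TGANTCA or the TATA box TATAAA on either strand. The next windows are those of Col4a1 and Col4a2, the chains of the main type IV collagen, which are transcribed in opposite directions. Col4a1 is at chr8:11312777-11313076 on the minus strand and Col4a2 at chr8:11312555-11312854 on the plus strand, each written 5′ to 3′ on its own strand, and capitals mark the 78 bases that the windows share on opposite strands.
Col4a1: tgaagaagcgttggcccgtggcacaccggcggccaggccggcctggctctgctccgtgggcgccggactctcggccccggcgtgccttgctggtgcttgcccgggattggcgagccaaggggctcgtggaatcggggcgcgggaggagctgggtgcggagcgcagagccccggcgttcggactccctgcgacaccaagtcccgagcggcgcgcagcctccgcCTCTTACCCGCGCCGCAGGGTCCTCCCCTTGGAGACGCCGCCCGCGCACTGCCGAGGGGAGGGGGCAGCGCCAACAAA
Col4a2: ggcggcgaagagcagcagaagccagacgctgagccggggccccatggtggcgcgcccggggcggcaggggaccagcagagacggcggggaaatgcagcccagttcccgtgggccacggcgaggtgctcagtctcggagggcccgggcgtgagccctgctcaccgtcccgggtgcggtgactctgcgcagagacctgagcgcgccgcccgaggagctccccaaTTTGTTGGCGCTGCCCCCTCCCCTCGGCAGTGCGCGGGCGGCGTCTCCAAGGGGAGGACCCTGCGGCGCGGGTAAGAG
The GC box was in 32 of the 63 windows of matrix genes (50.8%), against 35.7% of all 32851 windows of the table. GGTCANNNTGACC was in 0 of the 63, against 0.0700% of all, and GGTCA, which is contained in it, in 15 (23.8%), against 40.5%. TGANTCA was in 7 (11.1%), against 7.81%, and TATAAA in 12 (19.0%), against 13.6%. The 39 windows of genes that passed the filter on signal lay on the other side of the table for these last motifs, with TGANTCA in 1 (2.56%) and TATAAA in 3 (7.69%). Among these 39 the GC box was in 25 (64.1%) and GGTCA in 6 (15.4%). A match is a stretch of letters and was not tied to any measured binding.

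The first comparison asks which matrix genes differed after estradiol from untreated thymus, over the mean of days 2, 3 and 6. Of the 62 probe sets 1 was called, higher, where 0.604% of all 13575 tested probe sets were called in either direction. This was Htra1, a secreted serine protease that cuts fibronectin and other matrix proteins. The Htra1 signal on estradiol arrays was 139.8 and 136 on day 2, 125 and 113 on day 3, and 158 and 186 on day 6, against 77.7 and 72.9 on control arrays. Every estradiol array lay above both controls, with the highest signals at day 6. Htra1 rose by 0.78 ± 0.135 (SE), or 1.72-fold, with a limma adjusted p of 0.0203. At day 6 alone it rose by 1.04 ± 0.165, or 2.05-fold (limma adjusted p = 0.0122). Without the 3 arrays at another deposited scale the rise was 0.91, over estradiol days 2 and 6 only, with 1 array at day 2. Over the mean of days it was 0.80 (limma adjusted p = 0.123) with that scale as a block and 0.75 without control replicate 2. In none of these 3 settings did the rise pass the threshold. It also missed the threshold without estradiol day 3 replicate 1, day 3 replicate 2 or day 6 replicate 2 (0.76, 0.81 and 0.75, limma adjusted p = 0.0593, 0.0600 and 0.0639). The day 6 call was lost without control replicate 2 (1.00, adjusted p = 0.0866, limma) and without estradiol day 6 replicate 1 (1.15, 0.0740) or replicate 2 (0.93, 0.218).

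Over the mean of days 31 of the 44 genes, each by its brightest probe set, had a positive difference between estradiol and control, against 51.5% of all 8214 genes tested. Their median difference was 0.18, against 0.01 over all genes. At an unadjusted p under 0.05, 19 of the 62 probe sets were higher and 0 lower, where 9.05% and 5.79% of all tested probe sets were. The 6 estradiol arrays all lay above both control arrays for 21 of the 62, against 8.04% of all tested probe sets, and below both for 1, Col15a1, against 6.96%. The filter used the mean over all arrays, so a dim probe set could be kept by high estradiol arrays and enter these counts. Counted by gene, 14 of the 44 were higher and 0 lower at that p, against 9.34% and 5.97% of all genes, which is the background for counts by role. These counts depend on 2 control arrays: without control replicate 1, 8 probe sets passed the adjusted threshold, and without control replicate 2, 0 did.

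**Figure D1:**
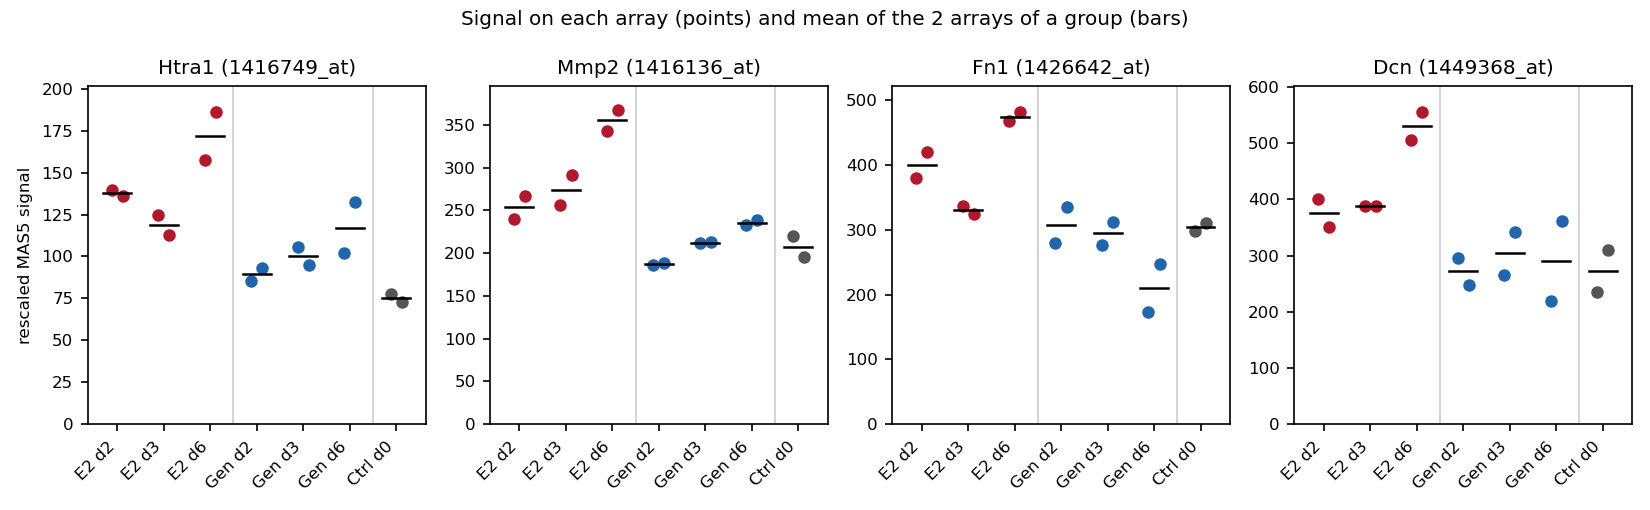
Rescaled signal of the probe sets of Htra1, Mmp2, Fn1 and Dcn that were called in any comparison, on each array (points) with the mean of the 2 arrays of a group (bars), for estradiol (E2) and genistein (Gen) at days 2, 3 and 6 (d2, d3, d6) and control at day 0. Htra1 and Mmp2 reach their highest signals, 186 and 368, on estradiol arrays of day 6, and Fn1 has its lowest, 173, on a genistein array of day 6.

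Among the proteases, Mmp2 (gelatinase A, which cuts denatured collagen and type IV collagen) was measured by 2 probe sets. The dimmer of them had signals of 240.3 and 267 on day 2, 257 and 292 on day 3, and 343 and 368 on day 6 of estradiol, against 219.9 and 196 on control arrays. All estradiol arrays were above both controls. It rose by 0.73 ± 0.139 at day 6, or 1.66-fold (limma adjusted p = 0.0302), with 0.656% of all tested probe sets called at that day and 2 of the 62 matrix probe sets. Its difference over the mean of days was 0.46 ± 0.113 (adjusted p = 0.0853, limma). The brighter Mmp2 probe set gave 0.54 ± 0.133 (adjusted p = 0.0836, limma) over the mean of days and 0.69 ± 0.163 (adjusted p = 0.0764) at day 6. The day 6 call of the dimmer probe set was lost without the 3 arrays at another scale (adjusted p = 0.0681), where the difference was again 0.73, and without control replicate 2 (0.65, adjusted p = 0.237). It was also lost without estradiol day 6 replicate 1 (0.78, limma adjusted p = 0.204) or replicate 2 (0.68, 0.351), and without estradiol day 3 replicate 1 or 2 (0.73 each, 0.0597 and 0.0601).

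Mmp14, the membrane-bound protease that activates the Mmp2 proenzyme, had 200.6 and 182 on day 2, 159.9 and 153 on day 3, and 148 and 152 on day 6 of estradiol, against 107 and 129 on control arrays. The groups did not overlap, and the difference of 0.44 ± 0.164 did not pass (limma adjusted p = 0.230). Mmp9, or gelatinase B, which neutrophils and macrophages also release, gave unlike values on its 2 probe sets: the brightest had a difference of 0.05 ± 0.148, and the dimmer 1.04 ± 0.264 (adjusted p = 0.0934, limma). The dimmer probe set had 65.9 to 91.9 on estradiol arrays, against 57.7 and 13.2 on control arrays, so that the control arrays lay farther from each other than the estradiol arrays did. Mmp24, another membrane-bound metalloproteinase, was at -0.20 ± 0.163, and Mmp8 and Mmp23 were at 0.13 and 0.10. Of the 7 proteases tested 1, Htra1, was called, 3 were higher at an unadjusted p under 0.05, and 0 were lower.

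The inhibitors had differences near 0 on their brightest probe sets. Timp2, which blocks metalloproteinases and also takes part in the activation of Mmp2, had a difference of -0.01 ± 0.130, Timp3, which is bound to the matrix, -0.01 ± 0.220, and Timp1 -0.08 ± 0.237. On estradiol arrays Timp2 ran from 298 to 360 with a median of 324, against 295 and 361 on control arrays, so that the groups overlapped. The 4 other tested Timp2 probe sets lay between -0.19 and 0.42, and for the highest of these, with 0.42 ± 0.132 (adjusted p = 0.162, limma), all estradiol arrays were above both controls. The 3 tested Timp3 probe sets ran from -0.01 to 0.43 and differed in sign. Timp4 lay below the filter.

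Among the fibrillar collagens, the chains of type I collagen had the largest positive differences on their brightest probe sets and did not pass. Col1a1 had signals of 58.2 and 70.3 on day 2, 75.2 and 102 on day 3, and 57.7 and 66.0 on day 6 of estradiol, against 38.6 and 25.1 on control arrays. The groups did not overlap, and the difference was 0.87 ± 0.198 (limma adjusted p = 0.0668), but the dimmer Col1a1 probe set was at -0.02 ± 0.234. On the first probe set both control arrays lay below 44.5, the signal at the filter's cutoff. Its higher estradiol arrays helped it to pass that filter. Without control replicate 1 the difference of the first probe set was 1.07 and passed (adjusted p = 0.0329). Col1a2 had 241 and 237 on day 2, 234 and 254 on day 3, and 218 and 255 on day 6 of estradiol, against 153 and 167 on control arrays. That is a difference of 0.54 ± 0.137 (adjusted p = 0.0934, limma), while its dimmer probe set was at -0.20 ± 0.184. Col3a1, the type III chain, was at 0.24 ± 0.130, and Col11a2, a chain best known from cartilage, at 0.30 ± 0.171. Of the 7 fibrillar genes tested, 0 were called, and 2 were higher and 0 lower at an unadjusted p under 0.05.

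Of the basement membrane collagens, Col4a1 had 293 and 315 on day 2, 329.5 and 352 on day 3, and 177 and 251 on day 6 of estradiol on its brightest probe set, against 260.3 and 188 on control arrays. The day 6 arrays lay within or below the controls, and the difference over the mean of days was 0.32 ± 0.146 (adjusted p = 0.334, limma). The dimmer Col4a1 probe set did not follow this order, with 227 and 239 at day 6 of estradiol against 177 and 135 on control arrays and a difference over the mean of days of 0.53 ± 0.137 (adjusted p = 0.0985, limma). Col4a2 had a difference of 0.39 ± 0.189, and Col18a1, whose C-terminal fragment is endostatin, 0.49 ± 0.151 and 0.65 ± 0.214 on its 2 probe sets. Col18a1 had 107.8 to 139 on estradiol arrays with a median of 130.3, against 91.2 and 81.8 on control arrays, without overlap. Col4a6 was at -0.14 ± 0.210. Of the 6 genes tested, 0 were called, and 2 were higher and 0 lower at an unadjusted p under 0.05.

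Among the other collagens, the chains of the microfibril-forming type VI were at 0.47 ± 0.154 for Col6a1, 0.29 ± 0.165 for Col6a2 and 0.02 ± 0.120 for Col6a3 (adjusted p = 0.174, 0.442 and 0.955, limma). Col7a1, which forms the anchoring fibrils of epithelia, was at 0.19 ± 0.163. The Col6a1 difference was 0.74 and passed (adjusted p = 0.0337) without control replicate 1. Its control arrays were at 196.6 and 130.5, a wide spread. Of the 8 genes in this group 0 were called, 1 was higher and 0 were lower at an unadjusted p under 0.05.

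Of the laminins, Lamb3 and Lama3 encode chains of the epithelial laminin 332. Lamb3 had signals of 150 and 171 on day 2, 159 and 167 on day 3, and 158 and 190.1 on day 6 of estradiol, against 123 and 110.5 on control arrays. Its difference was 0.45 ± 0.143 (adjusted p = 0.164, limma), and that of Lama3 was 0.33 ± 0.136 (adjusted p = 0.277). Both genes had every estradiol array above both controls. Lamc1, the most widespread gamma chain, was at 0.20 ± 0.213, and Lamc3, another gamma chain, at 0.52 ± 0.215 with control signals of 43.8 and 16.6. Of the 5 laminin genes tested, 0 were called, and 3 were higher and 0 lower at an unadjusted p under 0.05. Lama4 and Lamb1, chains of vessel basement membranes among others, lay below the filter with mean signals of at most 29.6 and 44.1.

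Of the glycoproteins and proteoglycans, decorin, which binds collagen fibrils, had 401 and 351 on day 2, 389 and 388 on day 3, and 506 and 556 on day 6 of estradiol, against 236 and 309.5 on control arrays. The arrays did not overlap, and the difference was 0.63 ± 0.174 (adjusted p = 0.119, limma). Fn1, the cell-adhesive glycoprotein fibronectin, was at 0.37 ± 0.136 (adjusted p = 0.226, limma) and Lum, a relative of decorin, at 0.37 ± 0.134 (adjusted p = 0.209). Bgn, the other close relative of decorin, was at 0.01 ± 0.198, Sparc, a collagen-binding glycoprotein, at 0.12 ± 0.139, and the fibulins Fbln2 and Fbln1 at 0.23 ± 0.112 and -0.29 ± 0.185. Of the 8 genes tested 0 were called, and 3 were higher and 0 lower at an unadjusted p under 0.05.

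**Figure D2:**
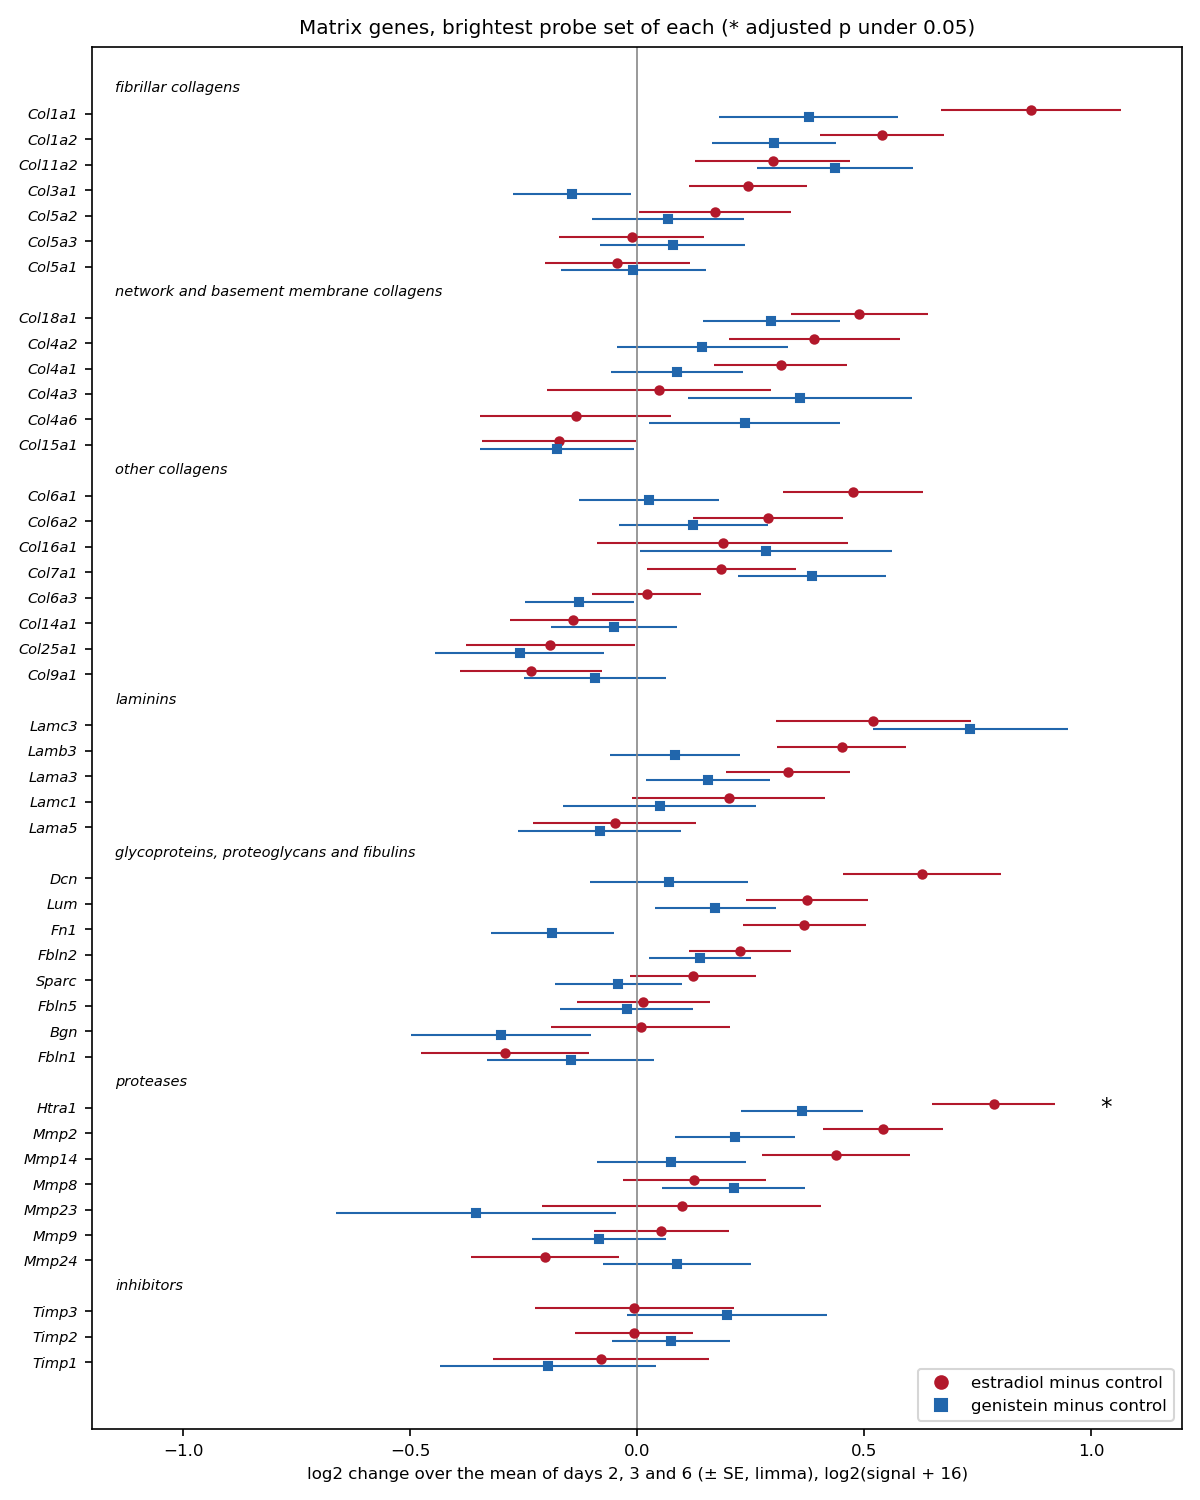
Log2 difference over the mean of days for the brightest probe set of each of the 44 tested matrix genes, estradiol minus control (circles) and genistein minus control (squares), with bars of 1 SE and genes grouped by role. Both differences of a gene share the 2 control arrays, and Htra1, with 0.78 under estradiol, is the only one marked as called.

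By day, 0 of the 62 probe sets were called at day 2 and 0 at day 3 of estradiol against control, where 0.0884% and 0.0663% of all tested probe sets were. At an unadjusted p under 0.05, 15, 15 and 16 were higher on days 2, 3 and 6, against 7.26%, 6.20% and 8.13% of all, and 0, 0 and 1 were lower, against 5.02%, 3.97% and 5.89%. Positive differences were found for 50, 48 and 40 of the 62 at days 2, 3 and 6, against 53.0%, 50.9% and 50.4% of all tested probe sets. Dcn differed from control by 0.45, 0.50 and 0.93 on these days, each ± 0.213 (limma adjusted p = 0.412, 0.457 and 0.0740). The F test of change over the days of estradiol called 0 of the 62, against 0.0221% of all, with 5 at an unadjusted p under 0.05, against 6.92%.

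The second comparison asks the same of genistein. Over the mean of days 0 of the 62 probe sets were called, where 0.0368% of all tested probe sets were. At an unadjusted p under 0.05, 8 were higher and 2 lower, against 6.19% and 4.91% of all tested probe sets. The median difference over the 44 genes was 0.08, with 28 of them positive, against a median of 0.02 and 54.7% positive over all genes. All 6 genistein arrays lay above both controls for 2 probe sets, those of Htra1 and Col7a1, and below both for 0, against 4.49% and 4.19% of all.

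Htra1 had 85.5 and 93.1 on day 2, 106 and 95.1 on day 3, and 102 and 132.5 on day 6 of genistein, against 77.7 and 72.9 on control arrays. Its difference was 0.36 ± 0.135 (adjusted p = 0.367, limma). The smallest p was that of Lamc3, with signals of 72.5 and 62.8 on day 2, 37.5 and 57.2 on day 3, and 55.5 and 64.2 on day 6 of genistein, against 43.8 and 16.6 on control arrays. Both control arrays lay below 44.5, the signal at the filter's cutoff. The groups overlapped at day 3, and the Lamc3 difference was 0.73 ± 0.215 (adjusted p = 0.326, limma). Without control replicate 1 it was 1.17 and passed (adjusted p = 0.0179), so that 1 array decides this call. Col11a2 was at 0.44 ± 0.171, Col7a1 at 0.38 ± 0.163 and Col1a1 at 0.38 ± 0.198, none of which passed. Fn1 was at -0.19 ± 0.136 and Bgn at -0.30 ± 0.198 on their brightest probe sets. Dimmer probe sets went lower for Sparc, at -0.54, and Col1a2, at -0.45, where the brightest were at -0.04 and 0.30. Counted by brightest probe set, 0 of the 44 genes were lower at an unadjusted p under 0.05, against 4.3% of all genes. At days 2, 3 and 6 of genistein 0 of the 62 were called, with 0.0147%, 0.00737% and 0.00737% of all tested probe sets called. At an unadjusted p under 0.05, 9, 0 and 6 were higher at these days, against 6.13%, 3.39% and 5.66% of all, and 1, 1 and 4 were lower, against 5.68%, 2.34% and 4.77%. The F test over the days of genistein called 0 of the 62 and 0% of all, with 6 of the 62 at an unadjusted p under 0.05, against 5.79%.

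**Figure D3:**
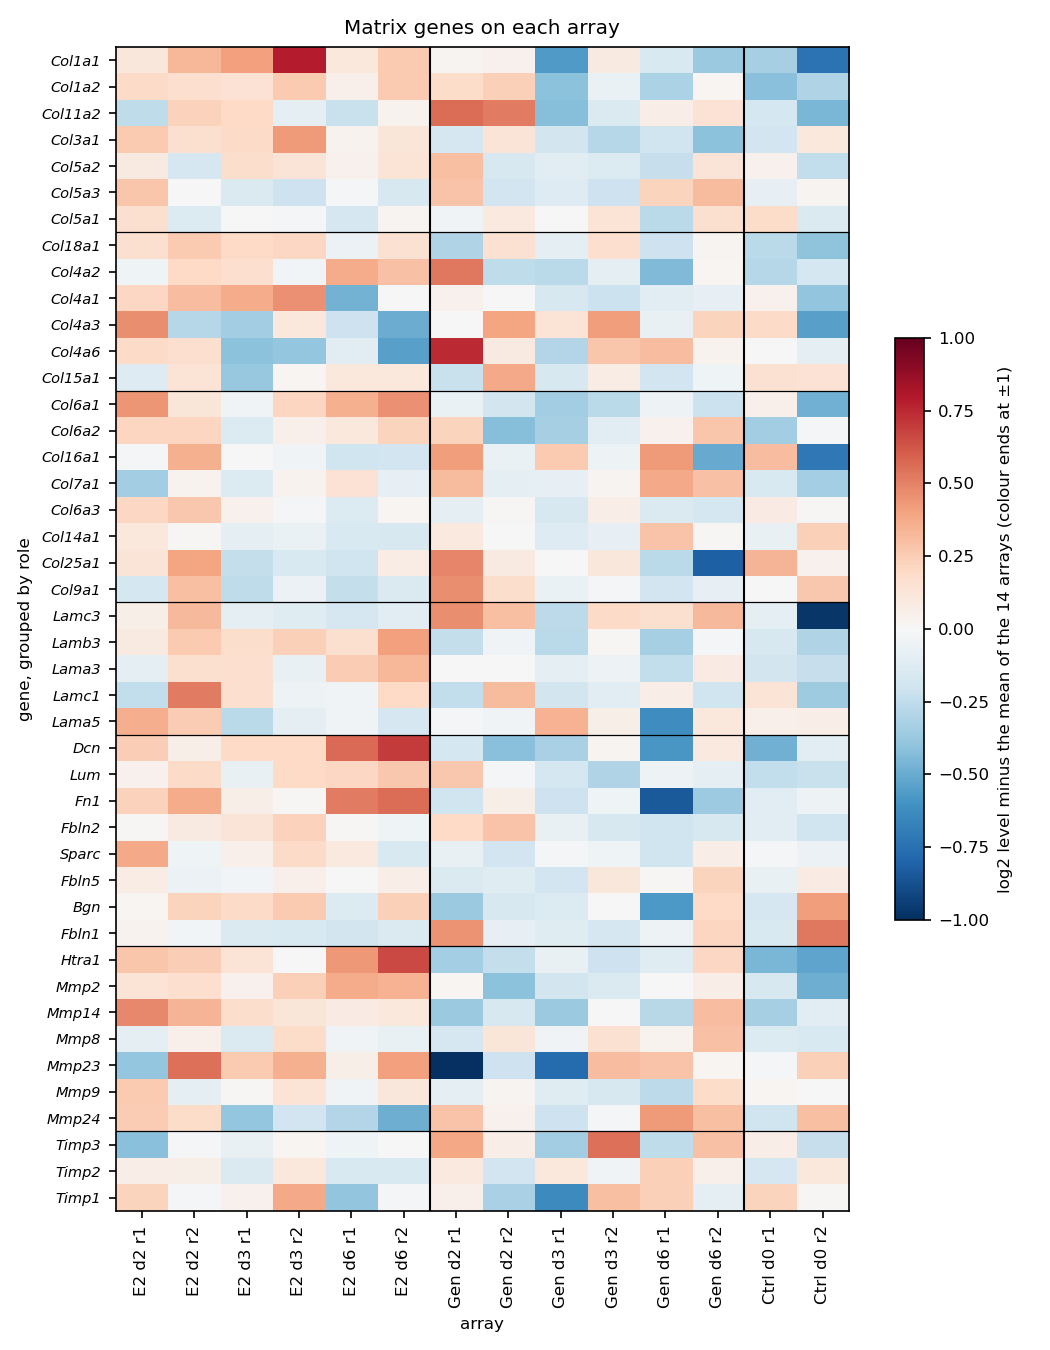
Log2 level of each tested matrix gene on each of the 14 arrays minus its mean over the arrays (brightest probe set, colour ends at ±1), with genes in the order of the plot of differences by role and arrays of estradiol (E2), genistein (Gen) and control (Ctrl) separated by lines. Col1a1, Lamb3, Dcn and Htra1 are above their mean on the estradiol arrays, with Htra1 near its mean on 1 of day 3, and both control arrays are below for Col1a1, Col1a2, Col18a1 and Htra1.

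The third comparison sets estradiol against genistein, with 6 arrays on either side and no control array in the difference. Over the mean of days 4 of the 62 probe sets were called, all higher under estradiol, where 1.11% of all tested probe sets were called higher and 0.295% lower. These were Fn1, the dimmer Mmp2 probe set, Dcn and Htra1. At an unadjusted p under 0.05, 14 were higher and 2 lower, against 9.31% and 7.80% of all. The median difference over the 44 genes was 0.13, with 29 positive, against -0.01 and 47.2% positive over all genes.

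Fn1 had 379.9 and 420.4 on day 2, 336 and 324 on day 3, and 467 and 482 on day 6 of estradiol, against 279 and 336 on day 2, 277 and 312 on day 3, and 173 and 247 on day 6 of genistein. Within each day both estradiol arrays lay above both genistein arrays, with the narrowest gap on day 3 and the widest on day 6. Fn1 was higher under estradiol by 0.55 ± 0.096, or 1.47-fold (limma adjusted p = 0.0119), over the mean of days. At day 6 it was higher by 1.14 ± 0.166, or 2.20-fold (limma adjusted p = 0.0132), the only call among the 62 at that day, where 0.265% of all tested probe sets were called. The control arrays were at 299 and 309.7, between the treatments at day 6.

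The dimmer Mmp2 probe set ran from 240.3 to 368 on estradiol arrays, against 186 and 188 on day 2, 212 and 213 on day 3, and 233 and 239 on day 6 of genistein. All 6 estradiol arrays thus lay above all 6 genistein arrays, and the difference was 0.44 ± 0.080, or 1.35-fold (limma adjusted p = 0.0171). The brighter probe set of Mmp2 was at 0.33 ± 0.094 (adjusted p = 0.0994, limma). Dcn had 351 to 556 on estradiol arrays with a median of 395, against 219 to 361 on genistein arrays with a median of 281. The treatments overlapped slightly, and Dcn was higher by 0.56 ± 0.123, or 1.47-fold (limma adjusted p = 0.0445). Htra1 had 113 to 186 on estradiol arrays with a median of 138, against 85.5 to 132.5 on genistein arrays with a median of 98.5, with overlap. It was higher by 0.42 ± 0.095, or 1.34-fold (limma adjusted p = 0.0477).

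These calls differ in how they hold when single arrays are left out. Over the 14 arrays left out in turn, Fn1 passed in 12, Mmp2 in 10, Dcn in 3 and Htra1 in 2, with a positive difference each time. Fn1 was lost without estradiol day 3 replicate 1 or day 6 replicate 2 (limma adjusted p = 0.0543 and 0.0547), and Mmp2 without estradiol day 3 replicate 2, either estradiol day 6 array or genistein day 3 replicate 2 (0.0506 to 0.0896). Under the 14 other settings of the processing, Fn1 and Mmp2 each passed in 12, Dcn in 8 and Htra1 in 6. Without the 3 arrays at another deposited scale none of the 4 passed: the difference was 0.65 for Fn1 (adjusted p = 0.0740), 0.44 for Mmp2 (0.143), 0.67 for Dcn (0.156) and 0.54 for Htra1 (0.143). Those 4 differences set estradiol days 2 and 6, with 1 array at day 2, against genistein days 2, 3 and 6. Their days thus differ from those of the calls. With the scale as a block, estimated from estradiol day 2 alone, the differences were 0.48, 0.36, 0.65 and 0.44 (limma adjusted p = 0.214, 0.248, 0.199 and 0.254). The day 6 difference of Fn1, which holds none of those arrays, passed there (adjusted p = 0.0376, limma), but not without estradiol day 6 replicate 1 (1.16, adjusted p = 0.153) or replicate 2 (1.12, 0.151), nor without genistein day 6 replicate 1 (0.90, 0.184). Genistein day 6 replicate 1 had a ratio of 3′ to 5′ Gapdh signals, a sign of RNA integrity, of 1.503, and estradiol day 2 replicate 1 had 1.27, against 0.867 to 1.10 on the other 12 arrays. With this ratio as a covariate the Fn1 difference at day 6 was 0.89 (adjusted p = 0.114, limma).

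All 6 estradiol arrays were above all 6 genistein arrays for 4 of the 62 probe sets, those of Mmp2, Lamb3, Col1a1 and Col6a1, against 0.965% of all tested probe sets. Of these, Col1a1 had genistein means of 43.5 and 41.3 on days 3 and 6, below the filter's cutoff signal of 44.5. Lamb3 had 150 to 190.1 on estradiol arrays, against 108 to 141 on genistein arrays, a difference of 0.37 ± 0.101 (adjusted p = 0.0853, limma). Col6a1 had 184 to 265 on estradiol arrays, against 145 to 182 on genistein arrays, a difference of 0.45 ± 0.109 (adjusted p = 0.0609, limma). Col3a1 was at 0.39 ± 0.092 (adjusted p = 0.0575), Col1a1 at 0.49 ± 0.140 (0.0975) and Mmp14 at 0.36 ± 0.116 (0.127), so that these named genes did not pass. The 2 lower at an unadjusted p under 0.05 were Col4a6 (-0.37 ± 0.148) and Mmp24 (-0.29 ± 0.115). The inhibitors were at 0.12 for Timp1, -0.08 for Timp2 and -0.20 for Timp3 on their brightest probe sets. Probe sets differed in sign for Timp2 (5, from -0.08 to 0.21) and Timp3 (3, from -0.20 to 0.16). At days 2 and 3, 0 of the 62 were called, where 0.0810% and 0.0147% of all tested probe sets were, with 6 and 5 higher at an unadjusted p under 0.05, against 4.35% and 3.65%, and 1 and 0 lower, against 2.36% and 3.06%. At day 6, 10 were higher and 1 lower at that p, against 6.92% and 6.51%.

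Of the 44 tested genes 13 had several tested probe sets. For estradiol against control these had the same sign for 6 genes and differed in sign for 7, among them Col1a1, Col1a2, Sparc and Timp2. For genistein against control 8 had the same sign and 5 did not, and for estradiol against genistein 10 did and 3 did not. Counts by gene above rest on the brightest probe set, and probe sets of 1 gene share their target.

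**Figure D4:**
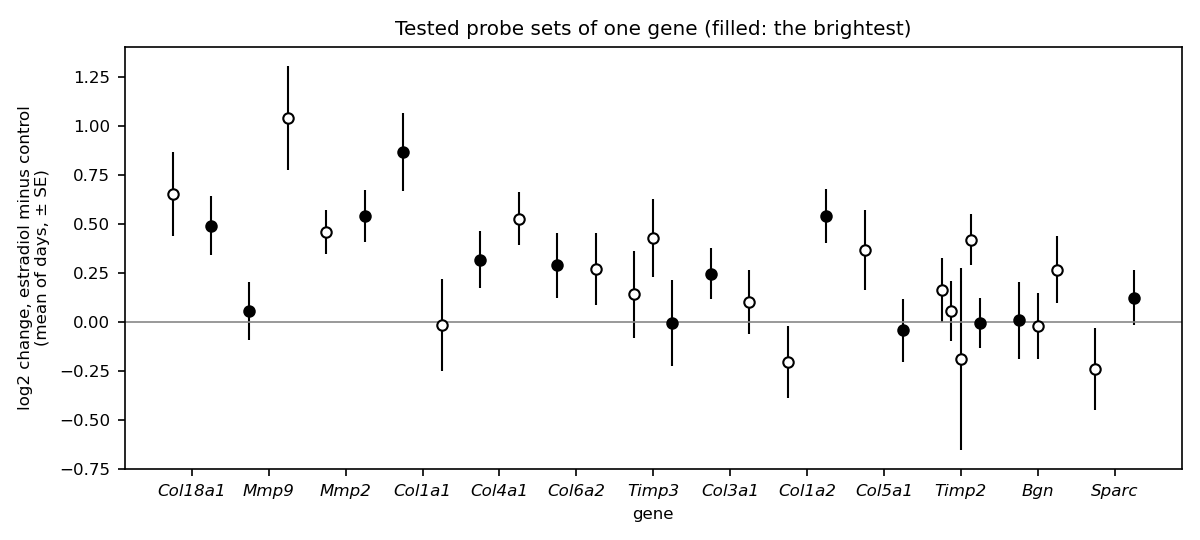
Log2 difference between estradiol and control over the mean of days, ± SE, for each tested probe set of the 13 genes that had several (filled, the brightest of a gene). Both probe sets of Mmp2 and of Col18a1 lie above 0, while those of Col1a1 lie at 0.87 and -0.02 and those of Col1a2 at 0.54 and -0.20.

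Across the 14 arrays, the median correlation between pairs of the 44 genes was 0.112, against 0.00516 between pairs of all tested genes, and 13.1% of the pairs had a correlation over 0.5, against 7.25%. The levels share arrays and groups, so these are descriptions. Within groups, that is after each group's mean was taken from its arrays, the median was 0.0971 for the matrix genes, against 0.00315 for all. Pairs of chains that are built into 1 protein ran from a correlation of 0.783 for Col1a1 and Col1a2 and 0.788 for Lamb3 and Lama3 to 0.454 for Col6a1 and Col6a2 and 0.112 for Col4a1 and Col4a2, the pair whose start windows overlap. Within groups these pairs had 0.340, 0.602, -0.110 and -0.0623. With 2 arrays a group, a correlation within groups rests on only 7 independent differences and is imprecise. Each gene enters by its brightest probe set. The dimmer Col4a1 probe set followed another order over the groups, and its correlation with Col4a2 was not computed. Fn1 and Dcn had 0.762 over the arrays and 0.589 within groups, while Htra1 and Mmp2 had 0.834 over the arrays and -0.119 within groups. The highest among all pairs over the arrays was that of Mmp24 and Col14a1 with 0.876, and 0.807 within groups.

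Genes that modify, bind or activate the matrix were read from lists beside the members. Of 16 tested genes of collagen maturation (chaperones, hydroxylases and crosslinking enzymes) 0 were called for estradiol against control, 13 had a positive difference and 2 were higher and 0 lower at an unadjusted p under 0.05, with a median of 0.10. Of 12 other matrix glycoproteins 0 were called, with 2 higher and 0 lower at an unadjusted p under 0.05. Postn, a matrix protein of mesenchyme, was at 0.51 ± 0.149 and Agrn, a heparan sulfate proteoglycan of basement membranes, at 0.83 ± 0.212 (adjusted p = 0.129 and 0.0933, limma). Tnc, an adhesion-modulating glycoprotein, was called for estradiol against genistein, higher by 0.38 ± 0.080 (limma adjusted p = 0.0345), where 1.14% of all genes were called higher. Of 17 matrix receptors, 15 genes of the TGF-beta pathway, which controls matrix synthesis, and 8 other matrix proteases, 0 were called for estradiol against control. At an unadjusted p under 0.05, 4, 1 and 2 of these were higher and 1, 0 and 1 lower.

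Markers of several other cell types were also higher on estradiol arrays. The summed signal of the matrix genes was 7079 to 7771 on estradiol arrays and 5994 to 7127 on genistein arrays, against 6258 to 6477 on control arrays. Thymic epithelial markers summed to 8241 to 9913 on estradiol arrays and 7232 to 8082 on genistein arrays, against 6364 to 6815 on control arrays, and 4 of 11 were called higher for estradiol against control, where 0.621% of all genes were, among them Trp63 (0.86 ± 0.145, limma adjusted p = 0.0203). The macrophage sums were 3970 to 4365 for estradiol and 2993 to 3897 for genistein, against 2971 to 3167 for control, with 4 of 10 called higher. Neutrophil sums were 1389 to 2024 for estradiol and 666 to 1314 for genistein, against 880 to 936 for control, with 0 of 6 called against control, all 6 of them higher at an unadjusted p under 0.05, and 4 of 6 called higher for estradiol against genistein, where 1.14% of all genes were. Adipocyte sums were 1429 to 2332 for estradiol and 905 to 1417 for genistein, against 1048 to 1050.4 for control, with 2 of 5 called higher for estradiol against control.

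Fibroblast and mesenchyme markers, the cells best known for type I collagen, summed to 1141 to 1453 on estradiol arrays and 1052 to 1284 on genistein arrays, against 1080 to 1096 on control arrays. Their mean log2 level, in which bright genes weigh less, overlapped. It was 5.94 to 6.06 on estradiol arrays and 5.66 to 6.16 on genistein arrays, against 5.77 and 6.07 on control arrays. Of these 12 markers 5 were bright enough to be tested, 0 were called for estradiol against control, and 1 was higher and 1 lower at an unadjusted p under 0.05. Pdgfra and Pdgfrb, both on this list, lay below the filter with mean signals of 22.5 and 35.4. Endothelial sums (0 of 8 genes called) were 708 to 856 for estradiol and 659 to 822 for genistein, against 694 to 743 for control. Smooth muscle and pericyte sums (0 of 7) were 1331 to 1445 for estradiol and 1122 to 1434 for genistein, against 1115 to 1285 for control. In each of these lists 1 gene was higher and 0 were lower at an unadjusted p under 0.05. The part of these cells in the differences of the matrix genes was not tested.

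**Figure D5:**
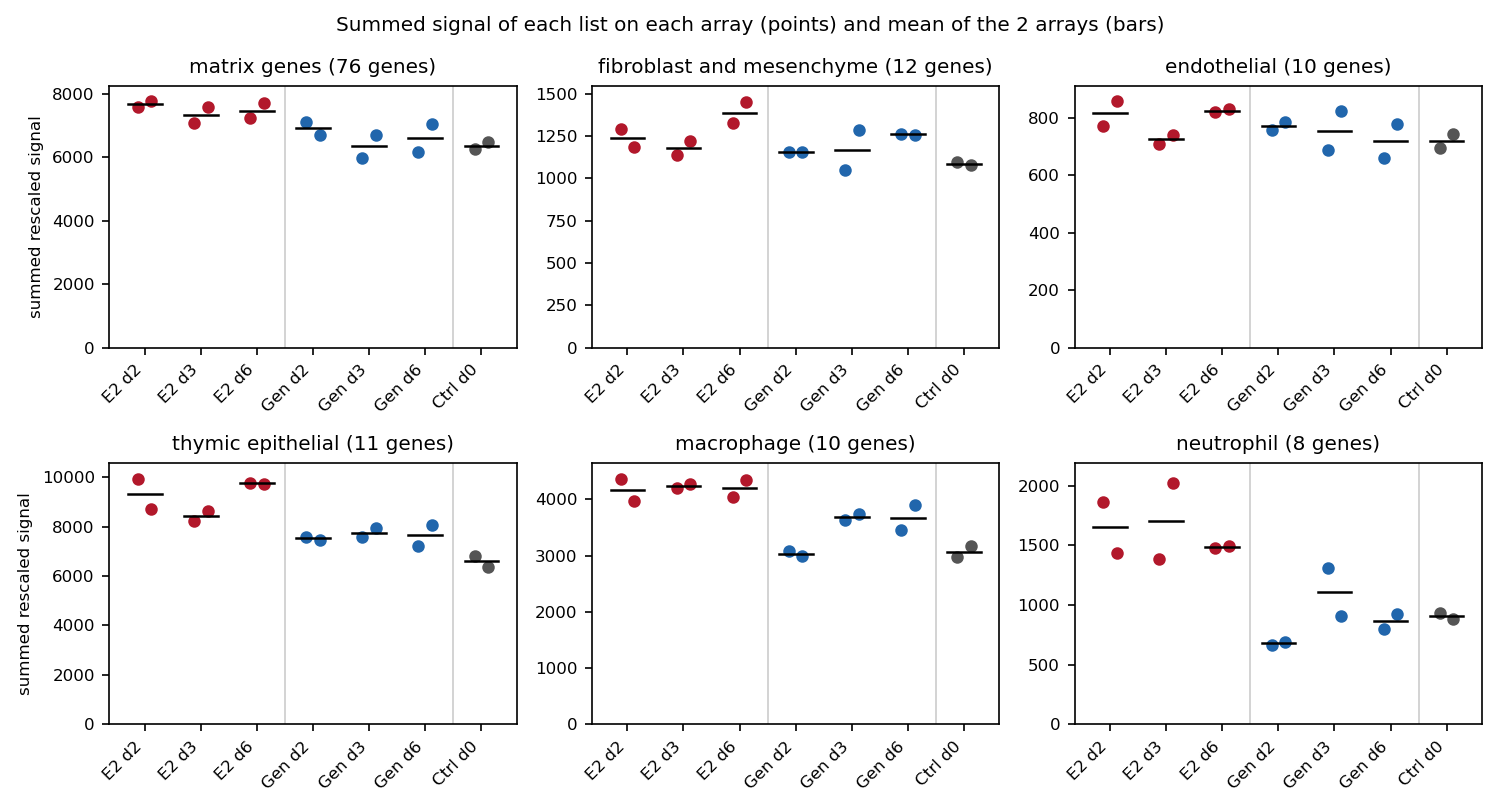
Summed rescaled signal of the matrix genes and of 5 marker lists on each array (points) with the mean of the 2 arrays of a group (bars), for estradiol (E2), genistein (Gen) and control (Ctrl); every axis starts at 0. Matrix, fibroblast, epithelial, macrophage and neutrophil sums were above both control arrays on all 6 estradiol arrays, and endothelial sums overlapped with control. By mean log2 level the fibroblast markers overlapped too, at 5.94 to 6.06 on estradiol arrays against 5.77 and 6.07 on control arrays.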

How the data were processed

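The deposited values are array signals (intensity) from MAS5 5.0, per the submitters' processing notes. The scaling target was not given in the sources used here, no detection calls were used, and image files were not analysed here. Because 3 arrays had another scale, each array was multiplied to one 2%-trimmed mean. After a pseudocount of 16 and log2, probe sets in the lowest 40% of mean level were dropped, which left 13575. This filter did not use the groups, but a probe set could pass through a group in which it was high. limma 3.58.1 in R 4.3.3 fitted 7 group means (lmFit, eBayes with an intensity trend, 7 residual degrees of freedom), with Benjamini-Hochberg adjustment over all probe sets tested in each comparison. The fit was tested on simulated data.

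Members and lists were chosen with earlier results of these data known. Genes are represented by their brightest probe set. Named were genes with a call, the 4 of each role with the smallest p, the 5 brightest and a standing list of matrix genes, and up to 4 of each other list. Genes given beyond these (Col15a1, Mmp8, Mmp23, Pdgfra, Pdgfrb, Tnc, Col14a1) were chosen after their values were seen. Replicate numbers were not used to pair the arrays in the main fit. The correlation of same-numbered deviations ran from -0.256 to 0.351 over 21 pairs of groups, with 5 over 0.1. This does not show whether some groups were handled together. Alternatives were a pseudocount of 1 or 64, no filter or the lowest 60% left out, quantile or median scaling, values as deposited, the 3 arrays left out or their scale as a block, no trend, the replicate block, only the groups compared, the Gapdh ratio as a covariate, _x_at and _s_at probe sets left out, and each array left out. Promoter windows came from RefSeq. Sums, sequences and figures were made in python 3.11.15 (matplotlib 3.10.9).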

Additional observations from a re-analysis of the deposited data

Results flagged for a closer look

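The difference between the effects of estradiol and of genistein, tested directly in limma over the mean of days, passed for 4 probe sets. These were Fn1 with 0.555, Dcn with 0.557, the dimmer Mmp2 probe set with 0.437 and Htra1 with 0.422 on the log2 scale, each higher under estradiol. For Fn1 it also passed at day 6, with 1.14. All 6 estradiol arrays lay above all 6 genistein arrays for Mmp2, whereas the arrays overlapped for Fn1, Dcn and Htra1.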

How the results depend on the processing

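The counts of called matrix probe sets were small and moved with few arrays. Left out one at a time, the arrays gave 0 to 8 calls for estradiol against control over the mean of days (8 without control replicate 1, and 0 without control replicate 2, estradiol day 3 replicate 1 or 2, or estradiol day 6 replicate 2), 0 to 2 at day 2, 0 to 2 at day 3 and 0 to 5 at day 6. They gave 0 to 2 for genistein against control over the mean of days, 0 to 2 at day 2, 0 to 1 at day 3 and 0 to 2 at day 6, and 0 to 5 between the treatments over the mean of days (0 without estradiol day 6 replicate 2) and 0 to 2 at day 6. For estradiol against control over the mean of days (1 call) there were 2 without the filter on low signals, 2 with the Gapdh ratio as a covariate, and 0 without the 3 arrays at another scale or with that scale as a block. Between the treatments, over the same mean (4 calls), there were 2 after quantile normalization, 2 with the Gapdh ratio, and 0 without the 3 arrays or with their scale as a block. At day 6, estradiol against control (2 calls) gave 1 after median centring, 1 without the 3 arrays and 0 when only the groups compared were fitted, and estradiol against genistein (1 call) gave 2 without the filter, 0 with only those groups and 0 with the Gapdh ratio. Values as deposited shifted the median of all probe sets by 0.43 for estradiol against control and 0.42 for estradiol against genistein, and gave 30 and 45 calls over the mean of days, 59 and 59 at day 3, 0 and 0 at day 6 and 57 for the change over the days of estradiol. There Mmp24 reversed for estradiol against genistein, to 0.092. The replicate block gave 1 call for estradiol against control and 3 between the treatments over the mean of days, and changed no other count of calls. Of 1028 values of single genes under alternatives, 921 kept their direction and side of the threshold, 73 lost the call, 33 gained it and 1 reversed. The causes were not tested. Where leaving out an array left 1 in its group, that array was assumed to vary like the other groups. Without the 3 arrays, no comparison with estradiol at day 3 could be fitted, and the estradiol mean of days covered days 2 and 6 only. No detection calls were used, so how far a dim probe set lies above background is not known.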
